A study of Mus musculus with 384 samples.

Results

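Hepatocytes take cholesterol in with lipoproteins, pass it between membranes inside the cell and send the surplus to bile. The 6 genes described here each serve 1 of these steps: Mylip and Lrp1 act at uptake, Npc1 and Stard4 carry sterol inside the cell, and Abcg5 and Abcg8 export it. They were found by their symbols in the GENCODE M21 annotation among 21454 genes of liver RNA. All 6 were above 0 in each of the 192 mice and were among the 14602 genes tested.

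Mylip encodes IDOL, an E3 ubiquitin ligase that marks receptors for low-density lipoprotein (LDL) for breakdown, and it is a target of the sterol-sensing liver X receptors (LXR). Lrp1 is a large endocytic receptor that clears lipoprotein remnants and protease complexes. Npc1 sits in the membrane of late endosomes and lysosomes and, with Npc2, releases cholesterol that arrived with LDL. Stard4 is a soluble carrier that moves cholesterol between membranes, and its gene is a target of the sterol response factor SREBP2. Abcg5 and Abcg8 are half-transporters that pair in the canalicular membrane and pump cholesterol and plant sterols into bile.

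The mice were wild-type Diversity Outbred animals, each with its own mixture of founder alleles, killed at 26 weeks of age. They had eaten a high fat diet (22% fat by weight) or standard chow (6% fat by weight) from weaning. There were 46 males and 48 females on high fat, and 48 males and 50 females on chow. Male and female here follow the letter M or F that opens each mouse name. Each mouse also carried an outbreeding generation label, G11L2 in 95 mice and G11L1 in 97, spread over all 4 groups. Whole liver was sequenced 2 times per mouse and the deposited table has 1 column per mouse, so the mouse is the replicate.

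Values were the authors' normalized signal, scaled by the upper quartile in each library. Estimated depth ran from 9.79 to 17.9 M reads per mouse, with group medians of 13.8 M in high fat males, 13.9 M in high fat females, 14.6 M in chow males and 14.3 M in chow females. The 8 hepatocyte markers (Alb, Ttr and others) summed to between 12100 and 69500 over all mice, as liver should show. Pancreas markers exceeded 10 times their median in 9 mice. Xist, the RNA that silences an X chromosome in females, was 0.361 in 1 chow female, within the male range of 0.332 to 2.47, while the other females had 88.2 to 312. Leaving that mouse out changed no call of the 6 genes in any comparison below. In whole liver, fewer cells of a type and less RNA per cell cannot be told apart.

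Abcg5 (ENSMUSG00000040505) and Abcg8 (ENSMUSG00000024254) are neighbours on chromosome 17 that point away from each other. Abcg5 runs from 84658234 to 84683011 on the minus strand and Abcg8 from 84676302 to 84700333 on the plus strand. Of the 2 Abcg8 starts in RefSeq, the downstream one is at 84683121, which leaves 109 bases between the 2 starts. The other start lies inside Abcg5, so 82 exon bases are shared, 3.02% of Abcg5 and 2.19% of Abcg8. Of the 6 genes, 4 had a window from 250 bases before to 50 bases after a start in the RefSeq table. The Abcg8 window is shown because it holds both starts and the 2 genes vary together below. It is chr17:84682871-84683170 of GRCm38.p6, plus strand, with matches to GATAA and CCAAT on either strand in capitals.
Abcg8 start: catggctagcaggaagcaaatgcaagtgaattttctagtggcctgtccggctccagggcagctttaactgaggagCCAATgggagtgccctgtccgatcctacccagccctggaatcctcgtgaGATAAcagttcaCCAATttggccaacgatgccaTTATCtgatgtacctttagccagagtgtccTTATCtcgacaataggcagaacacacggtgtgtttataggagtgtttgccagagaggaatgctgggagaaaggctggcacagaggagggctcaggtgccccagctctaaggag
The window holds 3 GATAA and 2 CCAAT matches, none of which overlap. Of 32851 such windows, 25.4% held GATAA, 37.4% held CCAAT and 0.116% held at least 3 of the first and 2 of the second. Those counts are the ones of the window shown, so the last share describes it and tests nothing. Both strands were searched. The sterol response core TCACNCCAC, present in 1.24% of windows, and the DR4 repeat that LXR binds, present in 0.0822%, had no match in the windows of these 4 genes, which says only that those letters are not there.

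Per kilobase of exon, Lrp1 had the highest mean signal over all mice, 13.9, followed by Abcg5 at 8.93, Abcg8 at 8.19, Stard4 at 6.30, Npc1 at 3.66 and Mylip at 0.915. Lrp1 (ENSMUSG00000040249) lies on chromosome 10 at 127538161 to 127621148 on the minus strand of GRCm38, with 17717 exon bases. Mylip (ENSMUSG00000038175) lies on chromosome 13 at 45389742 to 45412022 on the plus strand, with 3233 exon bases. Stard4 (ENSMUSG00000024378, 33199355 to 33213862) and Npc1 (ENSMUSG00000024413, 12189692 to 12236400) both lie on the minus strand of chromosome 18. Of the Npc1 exon bases, 5.31% are shared with the plus-strand genes Rmc1 and Gm15956, and reads there cannot be told apart without strand. No 50-base word of the Lrp1, Stard4, Abcg5 or Abcg8 transcripts occurred in a transcript of a gene outside the 6, on either strand. For Mylip 0.346% and for Npc1 4.39% of such words did. Among the 6 only the same strand was searched, which cannot find the 82 bases that Abcg5 and Abcg8 share on opposite strands.

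**Figure D1:**
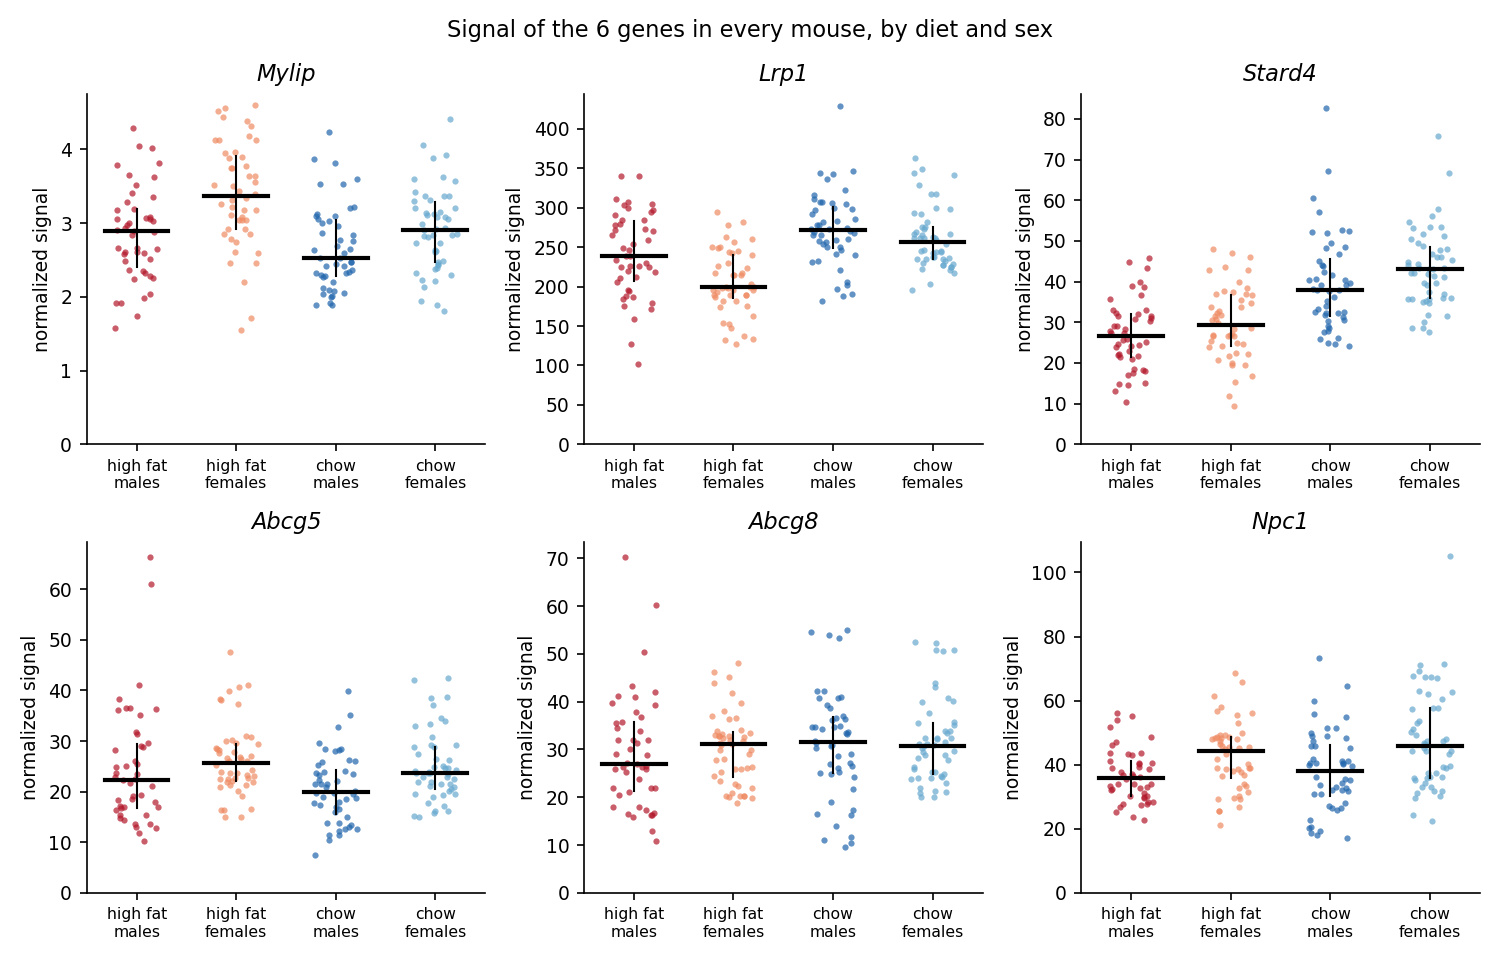
Normalized signal (y axis, linear from 0) of each gene in every mouse, by group. Points are mice, thick bars are medians and thin lines span the quartiles. Stard4 medians are 26.6 and 29.2 in high fat males and females and 38.0 and 43.0 in chow males and females, while the Abcg8 medians lie between 27.0 and 31.6.

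The first comparison asks how the high fat diet set these genes. Stard4 and Lrp1 fell on high fat, Mylip rose, and Abcg5, Abcg8 and Npc1 did not pass the test when both sexes were averaged. By limma with Benjamini-Hochberg adjustment over all tested genes at 0.05, 56.9% of the 14602 genes were called for diet. A count of 3 of 6 is therefore near the background. Of the called genes 26.3% were higher on high fat, and 52.1% were after a median-of-ratios rescaling of the mice. Over all tested genes the median log2 change with diet was -0.067 (-0.097 in males and -0.041 in females), and the rescaling moved it by 0.073 (by 0.102 in males). Log2 changes below are ± SE on the scale log2(signal + 0.0629).

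Stard4 had the largest diet change of the 6. It ran from 10.4 to 45.9 (median 26.6) in high fat males, against 24.2 to 82.6 (median 38.0) in chow males. In females it ran from 9.50 to 48.0 (median 29.2) on high fat, against 27.6 to 75.8 (median 43.0) on chow. The groups overlapped, but 17 of 46 high fat males lay below every chow male and 22 of 48 high fat females below every chow female. Averaged over sexes the log2 change was -0.58 ± 0.061 (adjusted p = 1.0e-15), a signal 0.669 times that on chow. It was -0.58 ± 0.088 in males and -0.58 ± 0.086 in females, and their difference was 0.01 ± 0.12 (95% interval -0.232 to 0.248, adjusted p = 0.977). Within the generation labels the change was -0.54 ± 0.085 in G11L2 mice and -0.63 ± 0.088 in G11L1 mice.

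Lrp1, the endocytic receptor, also fell. High fat males had 102 to 341 (median 239), against 182 to 429 (median 272) in chow males. High fat females had 128 to 294 (median 199.5), against 195 to 363 (median 257) in chow females. Of 48 high fat females, 43 lay below the chow female median and 18 below every chow female; of 46 high fat males, 30 lay below the chow male median. The log2 change was -0.28 ± 0.040 (adjusted p = 5.8e-10), with -0.21 ± 0.057 in males (adjusted p = 0.00143) and -0.36 ± 0.056 in females (adjusted p = 7.3e-08). The 2 effects differed by 0.15 ± 0.080, which did not pass (adjusted p = 0.229). It was -0.28 in G11L2 mice and -0.28 in G11L1 mice. Scaling moved it: after rescaling it was -0.20 ± 0.037 overall but -0.10 in males (adjusted p = 0.142), and after quantile normalization -0.09 overall (adjusted p = 0.0233) and -0.004 in males (adjusted p = 0.96). In G11L1 males it was -0.19 (adjusted p = 0.0567).

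Mylip, the ligase, was the gene that rose. Its signal was 1.58 to 4.29 (median 2.89) in high fat males, against 1.88 to 4.24 (median 2.53) in chow males. It was 1.55 to 4.61 (median 3.37) in high fat females, against 1.802 to 4.41 (median 2.91) in chow females. Ranges overlapped almost fully in both sexes, with 4 high fat females above every chow female. The log2 change was 0.14 ± 0.043 (adjusted p = 0.00306), 1.103 times the chow level, and 0.22 ± 0.044 after rescaling. In females it was 0.20 ± 0.060 (adjusted p = 0.00579), a call lost in G11L2 females (adjusted p = 0.0901) and in G11L1 females (adjusted p = 0.102). In males it was 0.08 ± 0.062 (adjusted p = 0.26), or 0.19 ± 0.063 after rescaling (adjusted p = 0.0112), and the sexes did not differ by test (difference -0.12 ± 0.086, adjusted p = 0.415). The change was 0.13 in G11L2 mice, where it missed the threshold (adjusted p = 0.067), and 0.15 in G11L1 mice (adjusted p = 0.0476).

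The export pair split. Abcg5 ran from 10.2 to 66.4 (median 22.4) in high fat males, against 7.46 to 39.9 (median 19.9) in chow males. In females it ran from 14.9 to 47.7 (median 25.6) on high fat, against 15.0 to 42.4 (median 23.7) on chow. The upper end was held by high fat males, 3 of which exceeded every chow male. The log2 change was 0.15 ± 0.068 and just missed the threshold (adjusted p = 0.0509), while after rescaling it was 0.23 ± 0.065 (adjusted p = 0.00216). In males it was 0.22 ± 0.097 (adjusted p = 0.046), a call kept in 10 of 15 alternatives, with 0.34 in G11L2 males (adjusted p = 0.0479) and 0.10 in G11L1 males (adjusted p = 0.579). Without the 10 mice least like the others it was 0.17 in males (adjusted p = 0.14). In females it was 0.08 ± 0.095 (adjusted p = 0.569), and the difference between the sexes did not pass (0.15 ± 0.14, adjusted p = 0.538).

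Abcg8, its partner, had 10.9 to 70.4 (median 27.0) in high fat males, against 9.52 to 55.0 (median 31.6) in chow males. It had 18.8 to 48.1 (median 31.1) in high fat females, against 20.0 to 52.5 (median 30.8) in chow females. These ranges overlapped throughout. The log2 change was -0.07 ± 0.071 (95% interval -0.206 to 0.072, adjusted p = 0.434), and its sign turned to 0.01 after rescaling.

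A ratio of 2 genes of the same library cancels any factor that scales the whole library. The log2 ratio of Abcg5 to Abcg8 averaged -0.28 ± 0.34 in high fat males, against -0.56 ± 0.36 in chow males (SD over mice, n = 46 and 48). It averaged -0.20 ± 0.27 in high fat females, against -0.35 ± 0.28 in chow females (n = 48 and 50). These ratios are of signal not divided by exon length (2712 bases for Abcg5 and 3749 for Abcg8). Per kilobase of exon the log2 ratio averaged 0.19 ± 0.35 in high fat males, against -0.092 ± 0.36 in chow males, and 0.27 ± 0.27 in high fat females, against 0.12 ± 0.28 in chow females (SD over mice). On that scale Abcg5 was above Abcg8 in 32 of 46 high fat males and 43 of 48 high fat females, against 22 of 48 chow males and 32 of 50 chow females. The ratio was higher on high fat by 0.22, 1.16-fold, in a 2-sided permutation test of the diet label within sex and generation label (100000 permutations, p = 1e-05, the smallest they can give, and 6e-05 adjusted over 6 contrasts). This test was chosen after the values had been seen. The difference was 0.29 in males (adjusted permutation p = 0.00051) and 0.15 in females (adjusted permutation p = 0.0109); in G11L2 females alone it was 0.12 (adjusted permutation p = 0.194).

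**Figure D2:**
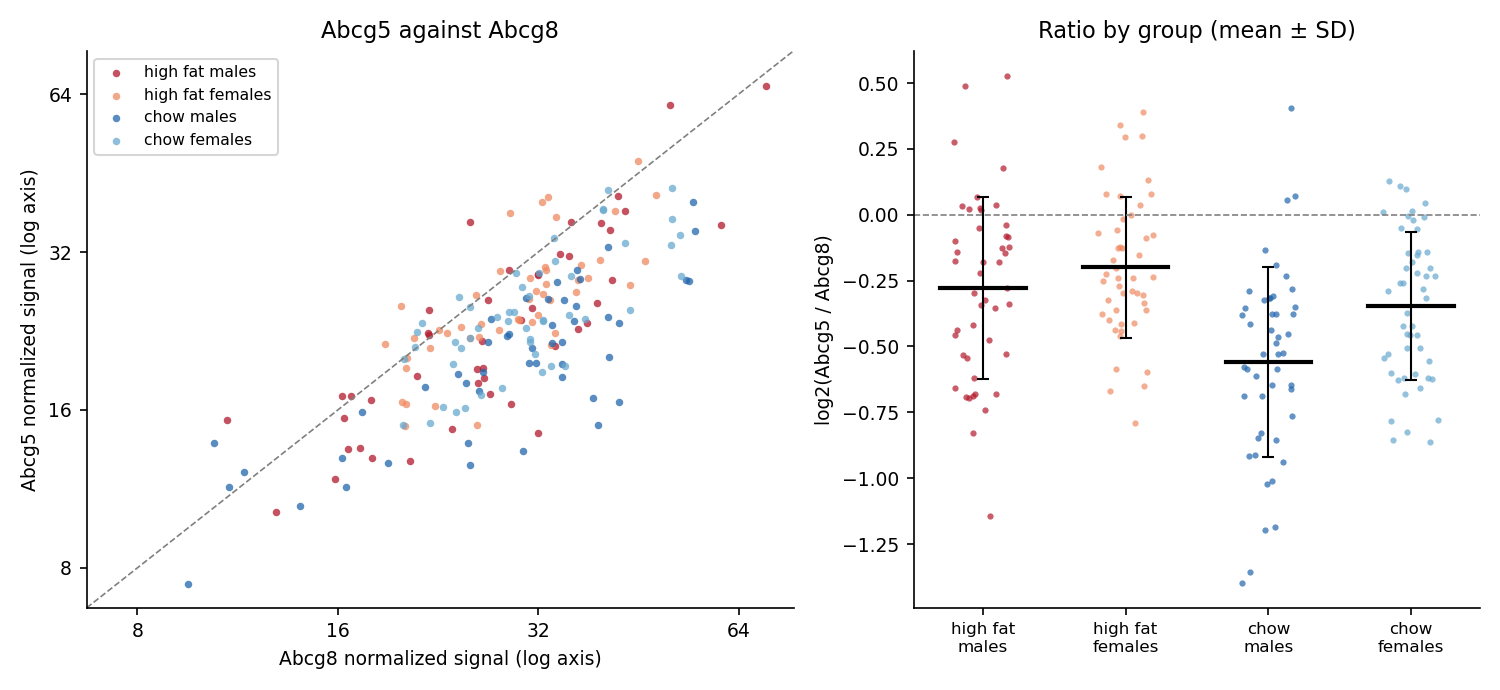
Left, Abcg5 against Abcg8 signal in every mouse on log2 axes, not divided by exon length, with the dashed line of equal signal. Right, the log2 ratio of that signal by group with mean ± SD. Mice lie along the line, and chow males sit lowest, at a mean ratio of -0.56.

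Npc1 had 22.7 to 56.1 (median 35.8) in high fat males, against 17.2 to 73.4 (median 37.9) in chow males. It had 21.2 to 68.6 (median 44.1) in high fat females, against 22.4 to 105 (median 45.8) in chow females. The log2 change with diet was -0.08 ± 0.061 (95% interval -0.194 to 0.044, adjusted p = 0.292), and 0.003 after rescaling. In males the diet ranges nested, with no high fat male outside the chow range.

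Within each sex, the diet called 3 of the 6 in males (Stard4 and Lrp1 lower, Abcg5 higher), where 51.2% of all genes were called (22.3% of them higher on high fat, and 53.5% after rescaling). It called 3 of the 6 in females (Stard4 and Lrp1 lower, Mylip higher), where 33.3% of all genes were called (30.0% of them higher on high fat, and 50.6% after rescaling).

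**Figure D3:**
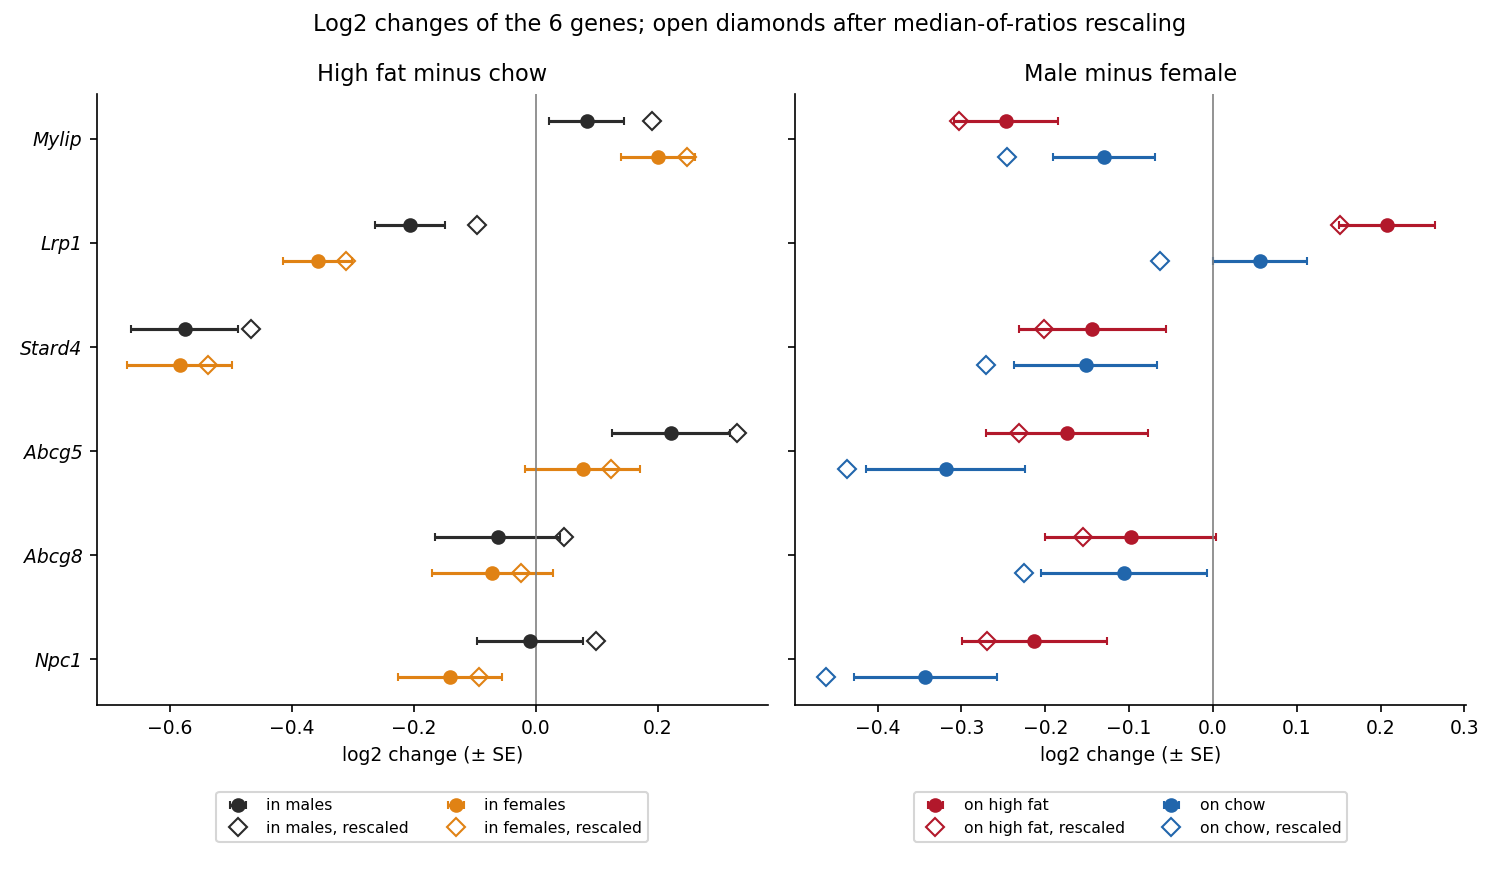
Log2 change ± SE (x axis) of each gene for high fat minus chow in males and females (left) and for male minus female on high fat and on chow (right). Filled circles are the values as deposited and open diamonds the same fit after median-of-ratios rescaling. Stard4 lies near -0.58 in both sexes, and the Lrp1 sex difference on chow changes sign with the scaling.

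The second comparison is between males and females. Mylip, Npc1, Abcg5 and Stard4 were lower in males, Lrp1 was higher, and Abcg8 did not pass. Of all genes 68.5% were called for sex, so 5 of 6 is again close to the background. Of the called genes 65.7% were higher in males, and 47.5% were after rescaling, which moved the median of all genes by -0.080 (by -0.110 on chow). On high fat 3 of the 6 were called (Mylip and Npc1 lower, Lrp1 higher) and 49.7% of all genes (63.3% of them higher in males, and 48.1% after rescaling). On chow 2 of the 6 were called (Abcg5 and Npc1 lower) and 63.3% of all genes (69.7% of them higher in males, and 47.0% after rescaling).

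Npc1 had the largest sex difference, -0.28 ± 0.061 (adjusted p = 2.1e-05), 0.825 times the female level. On high fat, 39 of 46 males lay below the female median, and on chow 36 of 48 did. The difference was -0.21 ± 0.087 on high fat (adjusted p = 0.0322) and -0.34 ± 0.085 on chow (adjusted p = 0.000199). It was -0.31 in G11L2 mice and -0.25 in G11L1 mice. The call on high fat was lost within G11L2 (-0.28, adjusted p = 0.0653), within G11L1 (-0.15, adjusted p = 0.371) and without the 10 least alike mice (-0.19, adjusted p = 0.0621).

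Abcg5 was lower in males by -0.25 ± 0.068 (adjusted p = 0.000712), with -0.17 ± 0.097 on high fat (adjusted p = 0.127) and -0.32 ± 0.095 on chow (adjusted p = 0.002). It was -0.28 in G11L2 mice and -0.20 in G11L1 mice (adjusted p = 0.0568), where the difference on chow was -0.19 (adjusted p = 0.23). After rescaling it was -0.23 on high fat (adjusted p = 0.0314). Abcg8 was at -0.10 ± 0.071 (adjusted p = 0.194), or -0.19 after rescaling (adjusted p = 0.00946). The ratio of the pair was lower in males by -0.14 (adjusted permutation p = 0.00288), with -0.07 on high fat (adjusted permutation p = 0.243) and -0.21 on chow (adjusted permutation p = 0.00288). Both calls were lost in G11L2 mice alone, at -0.11 (adjusted permutation p = 0.153) and -0.19 on chow (adjusted permutation p = 0.113).

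Mylip was lower in males by -0.19 ± 0.043 (adjusted p = 4.9e-05), with -0.25 ± 0.062 on high fat and -0.13 ± 0.060 on chow (adjusted p = 0.0513), or -0.25 on chow after rescaling (adjusted p = 0.000274). It was -0.21 in G11L2 mice and -0.17 in G11L1 mice. Stard4 was at -0.15 ± 0.061 (adjusted p = 0.0256), with -0.23 in G11L2 mice and -0.07 in G11L1 mice (adjusted p = 0.537). Without the 10 mice least like the others it was -0.12 (adjusted p = 0.078), and after rescaling -0.24 (adjusted p = 0.000188).

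Lrp1 alone was higher in males, by 0.13 ± 0.040 (adjusted p = 0.00225), but this rested on the scaling. After rescaling the difference was 0.04 ± 0.037 (adjusted p = 0.296) and after quantile normalization -0.04 (adjusted p = 0.262). On high fat it was 0.21 ± 0.057 (adjusted p = 0.00126), 0.15 after rescaling (adjusted p = 0.0119) and 0.04 after quantile normalization (adjusted p = 0.498). On chow it was 0.06 ± 0.056 (adjusted p = 0.39), -0.06 after rescaling and -0.13 after quantile normalization, where it was called lower in males (adjusted p = 0.016). It was 0.17 in G11L2 mice and 0.10 in G11L1 mice (adjusted p = 0.134).

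In order of their medians, Stard4 ran high fat males, high fat females, chow males, chow females from low to high. As deposited the sexes did not pass within either diet, and high fat females were not tested against chow males. In 2 of 15 alternatives Stard4 was called lower in males on chow, and in 2 of 15 on high fat. Lrp1 ran high fat females, high fat males, chow females, chow males, with no call between the last 2 as deposited. Mylip ran chow males, high fat males, chow females, high fat females, and the medians of high fat males and chow females, 2.89 and 2.91, were nearly equal. Npc1 and Abcg5 had both male groups under both female groups, Npc1 with high fat males lowest and Abcg5 with chow males lowest. For Abcg8 no tested pair of groups passed as deposited. In 2 of 15 alternatives it was called lower in males on chow (lowest adjusted p = 0.0277 by limma).

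No member was called for a difference between the diet effects in males and females, where 8.38% of all genes were called (17.4% of them with the higher effect in males, 50.4% after rescaling). None was called between the generation labels either, where 0.938% of genes were called (42.3% of them higher in G11L2 and 59.2% after rescaling). The members nearest to a call there were Mylip, at -0.12 ± 0.043 in G11L2 against G11L1 mice (unadjusted p = 0.00457 and adjusted p = 0.132 by limma), and Lrp1, at -0.11 ± 0.040 (unadjusted p = 0.00505 and adjusted p = 0.136 by limma). Among 186 agouti, black and white mice, black coats differed from agouti in 0.089% of genes and white from agouti in 0.0137%, with no member among them by limma and none at an unadjusted p under 0.05.

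The spread between mice was tested on how far a log2 value lay from its group median. High fat against chow called 2.23% of all genes and no member; Lrp1 and Stard4 scattered more on high fat and Npc1 less at unadjusted p = 0.00347, 0.00723 and 0.00485 by limma (adjusted p = 0.0922, 0.131 and 0.108). Males against females called 4.9% of all genes, and both half-transporters were among them. Abcg5 deviated by 0.15 ± 0.041 more in males (adjusted p = 0.0166) and Abcg8 by 0.15 ± 0.046 (adjusted p = 0.024). The SD of log2 Abcg5 was 0.60 in high fat males and 0.38 in high fat females, and 0.50 in chow males and 0.38 in chow females. The SD of log2 Abcg8 was 0.57 and 0.36 in high fat males and females, and 0.62 and 0.38 in chow males and females. Of the 10 mice least like the others, 9 were males; without those 10 mice neither gene was called (0.11 with adjusted p = 0.122 for Abcg5, and 0.11 with adjusted p = 0.172 for Abcg8). Neither was called within a generation label, at adjusted p = 0.642 and 0.304 in G11L2 and 0.147 and 0.32 in G11L1 for Abcg5 and Abcg8.

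The other genes of these pathways are described by counts from the same fits, beside the 56.9% called for diet and 68.5% for sex among all genes. The 20 enzymes of cholesterol synthesis were all lower on high fat (median log2 change -0.80), which is the direction of Stard4, and 19 of them were after rescaling. Idi1, an isomerase of the isoprenoid branch, averaged 13.6 ± 8.55 in high fat males and 52.8 ± 28.1 in chow males, and 14.6 ± 7.05 in high fat females and 48.0 ± 26.2 in chow females (SD, n = 46, 48, 48 and 50). Its log2 change was -1.86 ± 0.11. Cyp51, which demethylates lanosterol, was at -1.64 ± 0.10 and the methylsterol oxidase Msmo1 at -1.65 ± 0.11. By sex 12 of the 20 were lower in males and none higher.

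Of the 7 genes that process SREBP, 4 were lower and 1 was higher on high fat. Srebf2, which encodes SREBP2, was lower by -0.55 ± 0.037, its escort Scap by -0.31 ± 0.040 and the retention factor Insig1 by -0.65 ± 0.095. Srebf1, the factor for fatty acid synthesis, was higher by 0.41 ± 0.075. By sex 3 of the 7 were higher in males (Mbtps1 at 0.23 and Mbtps2 at 0.15 among them) and 4 lower (Srebf2 at -0.30 and Scap at -0.12 among them).

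Of 9 LXR genes and targets outside the 6, 5 were higher and 2 lower on high fat (median 0.29). The desaturase Scd1 was higher by 1.73 ± 0.18, the phospholipid transfer protein Pltp by 0.94 ± 0.10 and the sterol exporter Abcg1 by 0.41 ± 0.053. The receptors Rxra and Nr1h2 were both lower by -0.14. By sex 3 of the 9 were higher in males (Abca1 at 0.35 and Rxra at 0.24 among them) and 5 lower, Pltp by -1.05 and Abcg1 by -0.24 among them.

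Of 21 genes of the LDL receptor family and its endocytic partners, 3 were higher and 11 lower on high fat (median -0.08). Lrp4 was higher by 0.23 ± 0.058, the sorting receptor Sorl1 by 0.35 ± 0.13 and the receptor chaperone Lrpap1 by 0.09 ± 0.039. Ccdc22 and Ccdc93, subunits of a complex that recycles receptors from endosomes, were lower by -0.18 ± 0.028 and -0.18 ± 0.030. After rescaling 7 of the 21 were higher and 5 lower. By sex 8 of the 21 were higher in males (Ube2d2a at 0.21 among them) and 7 lower, Vldlr by -2.24 ± 0.19 and Lrp4 by -0.44 among them. After rescaling 5 were higher and 11 lower in males.

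Of 14 lysosomal and intracellular sterol carriers besides Npc1, 2 were higher and 7 lower on high fat. Gramd1b, which draws cholesterol from the plasma membrane to the endoplasmic reticulum, was higher by 0.43 ± 0.057. Lamp2, a lysosomal membrane protein, was lower by -0.26 ± 0.025, and Osbp by -0.17 ± 0.026. After rescaling 5 of the 14 were higher and 4 lower. By sex 7 of the 14 were higher in males (Scp2 at 1.15 and Osbp at 0.31) and 4 lower, with Npc2, the luminal partner of Npc1, at -0.52 ± 0.033 and the lysosomal lipase Lipa at -0.37 ± 0.039. Besides Stard4, 12 genes were listed with the START family or its relatives. Of these, 3 were higher on high fat (Acot11 at 0.96 ± 0.15, Pctp at 0.23 and Stard3nl at 0.12). Lower on high fat were 6 (Stard13 at -0.39 ± 0.040, Stard10 at -0.16 and Stard7 at -0.14 among them). After rescaling 5 were higher and 3 lower. By sex 4 of the 12 were higher in males (Stard13 at 0.32 and Stard7 at 0.16) and 3 lower (Pctp at -0.79 and Stard8 at -0.27), against 2 higher and 5 lower after rescaling.

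Of 11 canalicular and plasma transport genes besides the Abcg pair, 2 were higher and 5 lower on high fat. The bile salt pump Abcb11 was lower by -0.48 ± 0.045, the uptake carrier Slc10a1 by -0.27 ± 0.047 and Lcat by -0.20 ± 0.035, while the esterifying enzyme Soat1 was higher by 0.24 ± 0.064 and Abcb1a by 0.38 ± 0.11. By sex 4 were higher (Atp8b1 at 0.61 and Scarb1 at 0.30) and 4 lower in males (Abcb1a at -2.64 and Lcat at -0.32). Of 9 genes of bile acid synthesis and its regulators, 7 were lower and none higher on high fat, with Cyp27a1 at -0.39 ± 0.047, Hnf4a at -0.31 ± 0.036 and Nr5a2 at -0.25 ± 0.032. By sex 7 were higher in males, Cyp7b1 by 3.00 ± 0.17 and Cyp27a1 by 0.47 among them, and Cyp7a1, the first enzyme of the classical route, was lower by -0.54 ± 0.14.

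Markers of other liver cells moved with the same groups. Of 8 markers of lipid-associated macrophages, 7 were higher on high fat and none lower. Gpnmb averaged 2.13 ± 3.60 in high fat males and 0.0739 ± 0.131 in chow males, and 0.960 ± 1.49 in high fat females and 0.108 ± 0.127 in chow females (SD, n = 46, 48, 48 and 50). Their summed signal had medians of 26.2 (10.4 to 161) in high fat males, 17.7 (8.06 to 83.1) in high fat females, 13.7 (8.06 to 56.4) in chow males and 11.8 (7.85 to 18.2) in chow females. Of 8 Kupffer cell markers 3 were higher on high fat (Cd5l at 0.21, C1qa at 0.18 and Adgre1 at 0.21), and all 8 were lower in males, Vsig4 by -0.74 and Clec4f by -0.54 among them. Within a sex, 4 of the 8 were higher on high fat in males (median log2 change 0.26) and 2 were lower in females (median -0.071). Their sums had medians of 79.1 (35.1 to 195) in high fat males, 107 (37.7 to 203) in high fat females, 64.2 (29.6 to 116) in chow males and 102 (49.5 to 336) in chow females. Of 8 hepatocyte markers 5 were lower on high fat, Cps1 by -0.53 and Fgb by -0.39 among them. All 7 lymphocyte markers were lower in males, Cd3g by -0.71 and Lck by -0.67 among them, and none passed by diet. Of 7 markers of sinusoidal endothelium 6 were lower in males, Oit3 by -0.30 and Kdr by -0.20 among them, and 2 were higher and 2 lower on high fat (4 higher and none lower after rescaling). Of 8 stellate cell markers 4 were higher on high fat, the collagens Col1a1 by 1.04 and Col3a1 by 0.83 among them, and by sex 1 was higher and 2 lower in males. Of 5 neutrophil markers 4 were higher on high fat, S100a9 by 0.80 and S100a8 by 0.68 among them, 1 was lower, and 2 were lower in males. The part of these cells in the levels of the 6 genes was not tested.

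Variation between mice of the same group gave a further view. Pearson and Spearman correlations of log2 signal were computed for 15 pairs of the 6 genes in each group, with 2-sided permutation p-values (100000 permutations) adjusted over the 60 relations. Of the 60, 53 were positive and 11 passed at 0.05, all positive: 5 in high fat males, 2 in high fat females, 3 in chow males and 1 in chow females. After rescaling 6 of these 11 still passed, and after quantile normalization 4, those of Abcg5 with Abcg8 in each group. Genes of the same libraries share their depth and scaling.

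**Figure D4:**
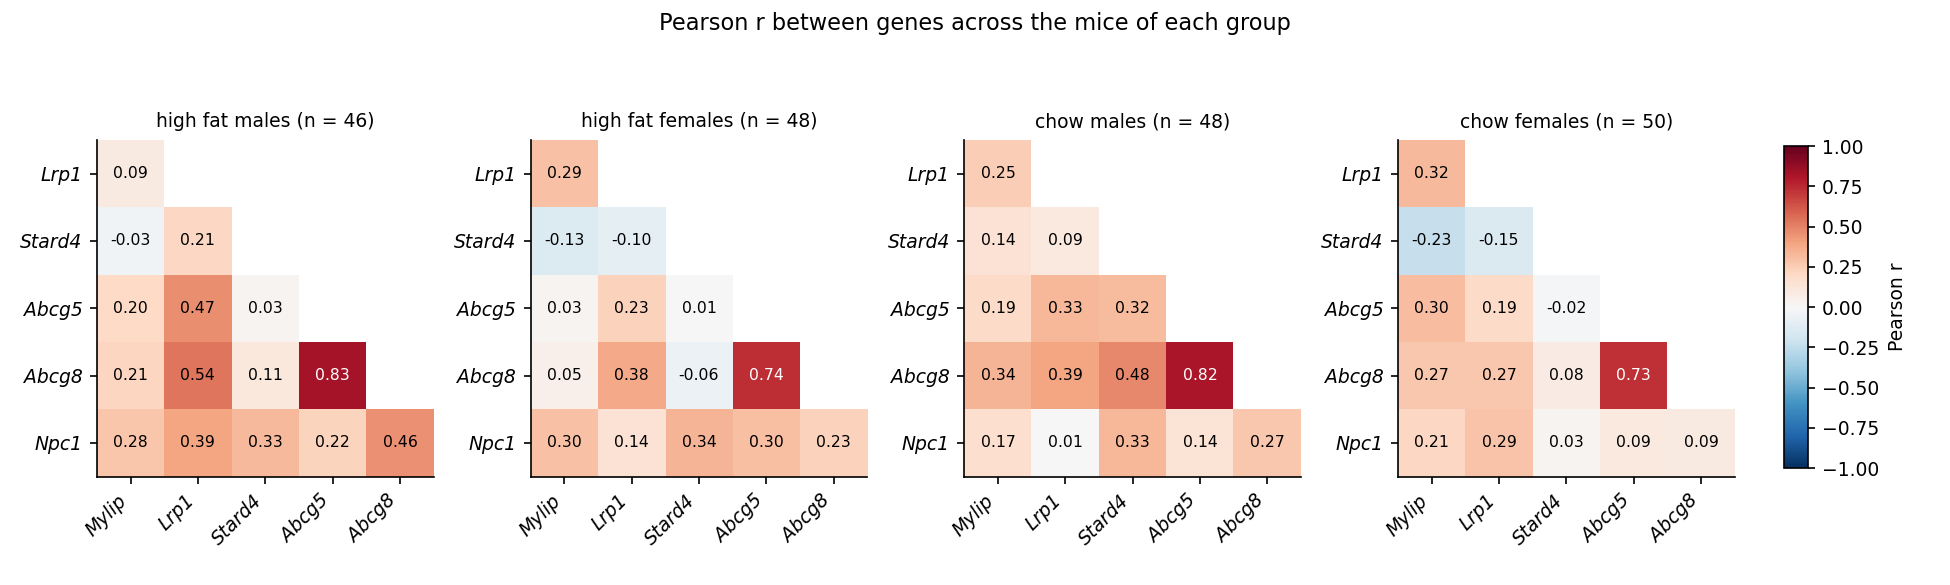
Pearson r between the 6 genes across the mice of each group, with colour from -1 (blue) to 1 (red). The Abcg5 and Abcg8 cell is the darkest in each of the 4 groups, from 0.73 to 0.83.

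The Abcg5 and Abcg8 levels rose and fell together in every group. Their r was 0.829 (rho 0.813) in high fat males and 0.741 (rho 0.767) in high fat females, against 0.816 (rho 0.737) in chow males and 0.731 (rho 0.693) in chow females. Each had a permutation p of 1e-05, the smallest possible, and 0.00015 after adjustment. Without the 2 mice farthest from the Abcg5 median of each group, r was between 0.70 and 0.79. In high fat males it was 0.843 in G11L2 and 0.827 in G11L1 mice, in high fat females 0.738 and 0.759, in chow males 0.825 and 0.80, and in chow females 0.792 and 0.602. In position they share the window above, with 109 bases between the 2 starts, and 82 exon bases. Whether their position bears on r was not tested.

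Lrp1 correlated with Abcg8 in 3 groups, at r = 0.536 (rho 0.513, adjusted permutation p = 0.00144) in high fat males, 0.375 (rho 0.36, adjusted permutation p = 0.048) in high fat females and 0.393 (rho 0.297, adjusted permutation p = 0.0383) in chow males. Without the 2 mice farthest from the Lrp1 median these became 0.433, 0.358 and 0.361, and after rescaling 0.424, 0.252 and 0.308. In high fat males Lrp1 also went with Abcg5 (r = 0.466, rho 0.427, adjusted permutation p = 0.009) and with Npc1 (r = 0.392, rho 0.331, adjusted permutation p = 0.0383). After rescaling these were 0.374 and 0.226, and after quantile normalization 0.257 and 0.241. The relation with Npc1 rested on 2 mice, since without them r was 0.281 (permutation p = 0.0658, n = 44). Abcg8 went with Npc1 in high fat males (r = 0.458, rho 0.499, adjusted permutation p = 0.01) and with Stard4 in chow males (r = 0.483, rho 0.457, adjusted permutation p = 0.0057). After rescaling these 2 were 0.332 and 0.427, and after quantile normalization 0.27 and 0.373. They were 0.65 and 0.559 in G11L2 mice, and 0.323 and 0.337 in G11L1 mice. Mylip had no relation with another member that passed.

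Each gene was also set against the mean log2 level of 5 lists, 120 relations in all, of which 28 passed. Stard4 followed the cholesterol synthesis genes in every group. Its r with their mean was 0.667 (rho 0.696) in high fat males and 0.682 (rho 0.502) in high fat females (adjusted permutation p = 0.0004 each), against 0.475 (rho 0.412, adjusted permutation p = 0.00628) in chow males and 0.709 (rho 0.658, adjusted permutation p = 0.0004) in chow females. Without the 2 farthest mice these were 0.708, 0.525, 0.341 and 0.63. In G11L2 mice r was 0.603, 0.399, 0.366 and 0.813 in the same order of groups, and in G11L1 mice 0.736, 0.821, 0.70 and 0.58. Within G11L2 it did not pass in high fat females (adjusted permutation p = 0.204) or chow males (adjusted permutation p = 0.261). It passed in each group after rescaling, at 0.667, 0.696, 0.454 and 0.711.

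Abcg8 ran against the same synthesis genes on high fat, at r = -0.396 (rho -0.389, adjusted permutation p = 0.0316) in males and -0.462 (rho -0.525, adjusted permutation p = 0.00806) in females. Abcg5 did so in high fat males (r = -0.446, rho -0.491, adjusted permutation p = 0.0139), and Lrp1 in high fat females (r = -0.509, rho -0.534, adjusted permutation p = 0.0036). Within the labels the Abcg8 value in males was -0.169 in G11L2 and -0.545 in G11L1 mice. No member other than Stard4 had a relation with this list that passed on chow. With the mean of the LXR genes and targets, Stard4 passed in high fat males (r = 0.39, rho 0.376, adjusted permutation p = 0.0342) and chow males (r = 0.439). In high fat males rho just missed the threshold (adjusted permutation p = 0.0502). There r was 0.282 after rescaling and 0.268 after quantile normalization. Lrp1 was negative with the LXR mean in high fat females (r = -0.415, rho -0.439, adjusted permutation p = 0.0214). That r was -0.463 after rescaling and -0.189 after quantile normalization. Mylip, Abcg5, Abcg8 and Npc1 had no relation with the LXR list that passed.

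Lrp1 was low in high fat livers with much lipid-associated macrophage RNA. Its r with the mean of those markers was -0.603 (rho -0.43, adjusted permutation p = 0.0004) in high fat males and -0.538 (rho -0.381, adjusted permutation p = 0.00189) in high fat females, against -0.125 (rho -0.20, adjusted permutation p = 0.622) in chow males and -0.172 (rho -0.172, adjusted permutation p = 0.435) in chow females. Without the 2 mice farthest from the Lrp1 median it was -0.409 (permutation p = 0.00603, n = 44) in high fat males and -0.442 (permutation p = 0.00202, n = 46) in high fat females. After rescaling it was -0.474 and -0.427, and after quantile normalization -0.271 and -0.179, where neither passed. In G11L2 mice it was -0.733 and -0.662, and in G11L1 mice -0.496 (adjusted permutation p = 0.0998) and -0.382 (adjusted permutation p = 0.241). The difference between the diets in this relation was not tested.

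Abcg8 was likewise negative with the macrophage markers in high fat males (r = -0.441, rho -0.439, adjusted permutation p = 0.0139), high fat females (r = -0.50, rho -0.436, adjusted permutation p = 0.0032) and chow males (r = -0.409, rho -0.28, adjusted permutation p = 0.0217). In that order r was -0.666, -0.622 and -0.546 in G11L2 mice, and -0.274, -0.421 and -0.106 in G11L1 mice. Stard4 was so in high fat males (r = -0.597, rho -0.57, adjusted permutation p = 0.0004) and chow males (r = -0.383, rho -0.343, adjusted permutation p = 0.0342). In high fat males r was -0.584 in G11L2 and -0.629 in G11L1 mice, and in chow males it was -0.552 in G11L2 and -0.0646 in G11L1 mice. Abcg8 also went with the mean of the other canalicular and plasma transport genes, at r = 0.489 (rho 0.491) in high fat males and 0.396 (rho 0.399) in high fat females, against 0.612 (rho 0.546) in chow males and 0.404 (rho 0.376) in chow females (adjusted permutation p = 0.0053, 0.0288, 0.0004 and 0.0214 in that order). After rescaling it passed on chow, at 0.444 and 0.38, but not on high fat, at 0.211 and 0.152. In G11L2 mice r was 0.703, 0.579, 0.645 and 0.217, and in G11L1 mice 0.393, 0.365, 0.511 and 0.646. The relation with this list was not particular to Abcg8. In high fat males Lrp1 (r = 0.487), Abcg5 (0.377) and Npc1 (0.463) passed too, at 0.165, 0.175 and 0.285 after rescaling. In chow males Abcg5 (0.528) and Stard4 (0.364) did, at 0.421 and 0.28 without the 2 farthest mice. Mylip had 1 relation with a list that passed, that with the Kupffer markers in chow males (r = 0.384, rho 0.374, adjusted permutation p = 0.0341), and it rested on 2 mice (0.285 without them, permutation p = 0.0563, n = 46).

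**Figure D5:**
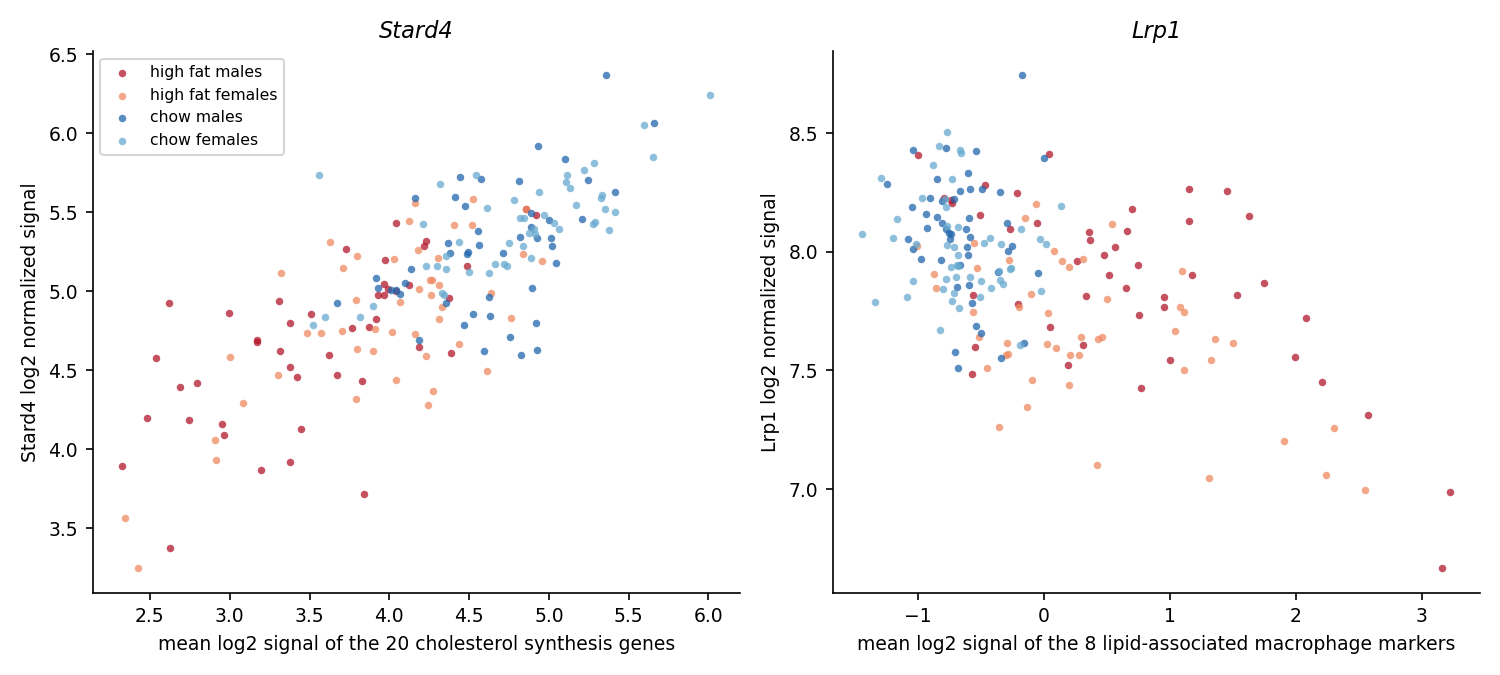
Left, log2 signal of Stard4 against the mean log2 signal of 20 cholesterol synthesis genes. Right, log2 signal of Lrp1 against the mean of 8 lipid-associated macrophage markers. Points are mice coloured by group. High fat mice extend to the low end on the left, and to the right on the right panel, where r was -0.603 in males and -0.538 in females.

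The genes most like each member were sought by Pearson r of residuals over all 192 mice, after the 4 group means and the generation label were removed. These are descriptions from shared libraries, without a test. Abcg5 and Abcg8 were each other's nearest gene among those with a symbol, at r = 0.789 (0.768 after rescaling). Both had Slc27a2, a fatty acid transport protein, next (0.55 with Abcg5 and 0.637 with Abcg8). Abcg5 then had Cyp2e1 (0.541), Bcas3 (0.515) and Clmn (0.508), and Abcg8 had Mgrn1 (0.634), Pbld2 (0.622) and the mitochondrial deacylase Sirt3 (0.609). Sprr1a was lowest with both, at -0.455 and -0.531, with Tubb2a (-0.454) and Col4a1 (-0.431) next for Abcg5 and Tpm4 (-0.503) and Plekha1 (-0.501) for Abcg8. For 95% of all genes r lay between -0.236 and 0.337 with Abcg5.

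Stard4 had Mmab (0.688), Lss (0.683), Insig1 (0.649) and Aacs (0.645) among its nearest 5, where Lss is the lanosterol synthase and a member of the synthesis list. Its lowest were Adam8 (-0.414), Bst2 (-0.404) and Spi1 (-0.401), the last a factor of myeloid cells. Lrp1 had Plxnb2 (0.719), the fibronectin gene Fn1 (0.696), Ncoa2 (0.695), Ptprf (0.691) and Setd1b (0.69), and at the other end Anxa2 (-0.596), S100a11 (-0.592) and Ywhah (-0.577). For 95% of all genes r lay between -0.288 and 0.477 with Lrp1.

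Mylip had Maf (0.478), Nfkbia (0.475), Angptl4 (0.451), Tob2 (0.443) and the mannose receptor Mrc1 (0.425) nearest, and Sept9 (-0.44), Dbnl (-0.426) and Tuba1c (-0.403) farthest. Npc1 had Fam160b1 (0.457), Epha1 (0.446), the liver glycogen synthase Gys2 (0.442), the clock repressor Nr1d2 (0.433) and Clmn (0.432) nearest. At its other end were Rbbp8 (-0.424), which lies on chromosome 18 like Npc1, the clock activator Arntl (-0.369) and Chka (-0.342). Over all genes the median r was 0.0055 with Mylip and 0.040 with Npc1.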

How the data were processed

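Liver RNA of 192 mice was measured by single-end sequencing of 100 bp. The authors deposited a signal per gene and mouse, scaled by its upper quartile, in 1 table for 2 technical repeats per mouse; how the repeats were joined is not given in the sources used here. GRCm38 (mm10) and CASAVA 1.8.0 stand in the submitters' processing notes. No aligner, counter or strand setting is given in the sources used here. The GENCODE M21 annotation held 21022 of the gene IDs and lacked 432. Depth was estimated from the steps of low values, of which 78.0% to 82.4% per mouse (up to 100 reads) lay within 0.1 of a whole read, so no count test was run.

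Genes above 0 in at least 46 mice with a mean of at least the pseudocount (0.0629, 1/100 of the median upper quartile, about 3.99 reads) were tested on log2(signal + pseudocount), which understates changes of low genes. limma 3.58.1 (R 4.3.3, mean-variance trend) fitted 4 group means and the generation label, and a second fit added coat colour. Correlations and ratios used Python 3.11.15. Named list genes are up to 3 per called direction by diet p and 2 by sex p; some genes so named are not reported here. The scripts were tested on simulated data. The 6 genes, lists and tests were chosen with earlier results of these data known. Alternatives were other pseudocounts, filters, scalings, covariates, weights, single generation labels, and fits without unlike mice. For a male and a female with the same mouse number, deviations from the group means had a median r of 0.0105 (92 pairs). Whether the numbers pair the mice was not tested.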

Additional observations from a re-analysis of the deposited data

Results flagged for a closer look

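For 7 of the genes that the naming rule took from the lists, the diet effect in males minus that in females passed the test of that difference (limma, Benjamini-Hochberg adjusted p, log2 scale). Of 170 list genes 15 passed it, all with a negative difference. Among all 14602 tested genes 1223 passed (8.38%), 1010 of them with a negative difference. A count of 15 of 170 is therefore near the background. After rescaling 6 of the 170 passed, 5 of them negative, against 617 of the 14602, 306 of them negative. Of the 7 only Scp2 (-0.39, adjusted p = 1.72e-05) and Ccdc22 (-0.19, adjusted p = 0.0173) then passed. Pltp, the phospholipid transfer protein, rose less in males than in females, by 0.63 against 1.26 (difference -0.63 ± 0.20, adjusted p = 0.0336). Scp2, the sterol carrier protein, was at -0.14 in males and 0.31 in females (difference -0.45 ± 0.076, adjusted p = 8.7e-06). Tm7sf2, a sterol reductase of the synthesis list, was at -0.98 in males and -0.62 in females (difference -0.36 ± 0.12, adjusted p = 0.0437). Lrpap1 was at -0.04 in males and 0.22 in females (difference -0.26 ± 0.078, adjusted p = 0.0228). Ccdc22 was at -0.31 in males and -0.06 in females (difference -0.25 ± 0.055, adjusted p = 0.00114). Npc2 was at -0.13 in males and 0.07 in females (difference -0.20 ± 0.067, adjusted p = 0.0403). Ube2d2a, a ubiquitin-conjugating enzyme, was at -0.09 in males and 0.05 in females (difference -0.14 ± 0.044, adjusted p = 0.0249). Over all tested genes the median diet change was -0.097 in males and -0.041 in females.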

How the results depend on the processing

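The log2 changes tallied were those of all 6 genes by diet and sex. Added were Mylip, Lrp1 and Stard4 for the difference of the diet effects, Mylip and Lrp1 for generation, and the Abcg pair for spread by sex. Of these, 567 kept direction and side of the threshold, 22 gained a call, 29 lost one and 19 changed sign, of which 1 had been called, Lrp1 by sex. Signs also changed outside this tally. The difference of the diet effects ran from -0.023 to 0.314 for Abcg5 and from -0.136 to 0.149 for Abcg8. Of the correlations, 285 kept their call or, without the 2 farthest mice, had a similar r whatever its p. The relations said above to rest on 2 mice are among these. Of the others 102 lost their call, 2 moved and 1 turned. The cause was not tested.

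After median-of-ratios rescaling, the diet change was 0.0111 for Abcg8 and 0.00268 for Npc1, and in males 0.046 and 0.0987, and the Lrp1 sex difference on chow was -0.0628. With it, 2 members were higher and, in males, 2 higher and 1 lower by diet, while by sex 0 were higher, 5 were lower on chow and 4 lower on high fat. Over all tested genes the rescaling called 24.9% higher by diet, and 19.4% higher and 16.8% lower in males. By sex it called 30.4% higher, 29.5% lower on chow and 25.1% lower on high fat. It called 617 genes for the difference of the diet effects, 262 for generation and 0 for white coat, and 6 member pairs passed.

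After quantile normalization, the diet change was 0.0507 for Abcg8 and 0.0517 for Npc1, in males 0.0876 and 0.147, and in females 0.0137 for Abcg8. The Lrp1 sex difference was -0.0448, and -0.133 on chow. By diet 2 members were higher, and in males 2 higher and 1 lower, with 4906 genes called in males. By sex 0 were higher, 6 lower on chow, and 0 higher and 4 lower on high fat. Over all tested genes the normalization called 20.9% higher by diet, and 15.0% higher and 18.6% lower in males. By sex it called 34.1% higher, 24.8% lower on chow, and 25.2% higher and 22.9% lower on high fat. It called 633 genes for the difference of the diet effects and 254 for generation, 4 pairs and 11 list relations passed, and r of Abcg8 with the transport list in high fat males was -0.00515.

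In G11L2 mice alone, 0 members were higher by diet, overall and in females, 1 was lower by sex on high fat and 0 differed in spread by sex. Of 14602 tested genes, 1529 were higher by diet, 699 higher by diet in females and 1765 lower by sex on high fat. The diet change in males was 0.058 for Abcg8 and 0.0168 for Npc1. Genes called were 4930 for diet in males, 2432 for diet in females, 4748 for sex on high fat, 54 for the difference of the diet effects, 29 and 192 for spread by diet and sex, and 2 and 0 for black and white coat. List relations that passed were 18. The ratio of the pair differed by -0.108 by sex (adjusted permutation p = 0.153), 0.116 by diet in females and -0.191 by sex on chow (adjusted permutation p = 0.113).

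In G11L1 mice alone, by sex 0 members were higher and 2 lower, with 1 lower on chow and 0 higher and 1 lower on high fat. By diet 0 were higher and 1 lower in males and 0 higher in females, and 0 differed in spread by sex. Of 14602 tested genes, 5684 were higher and 2628 lower by sex, 2021 lower on chow, and 3461 higher and 1732 lower on high fat. By diet 1019 were higher and 3992 lower in males, and 710 higher in females. Abcg8 differed by 0.0417 by sex on chow, and the Stard4 diet effects differed by -0.0692. Genes called were 2348 for diet in females, 546 for the difference of the diet effects, 39 and 192 for spread, and 7 and 1 for black and white coat. List relations that passed were 8.

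With array weights, 2 members were higher by diet, 0 higher by diet in males and 1 more spread in males. Of 14602 tested genes, 2195, 1608 and 557 were so in that order. The Stard4 diet effects differed by -0.0309, and 344 genes were called for generation, 205 for spread by diet and 30 for black coat. Without the 10 least alike mice, 0 members were higher by diet in males and 1 was lower by sex on high fat. In that fit 1569 of 14602 tested genes were higher by diet in males and 2555 lower by sex on high fat. There 0 members were more spread in males, against 480 genes called for spread by sex in either direction. The Stard4 effects differed by -0.0478 and 6 pairs passed. Without mice with pancreas markers the Stard4 effects differed by -0.00188. A filter at 10 pseudocounts gave 2 members higher by diet, against 1234 of 10868 genes. With no filter, 0 members were higher by diet in males, against 1962 of 21454 genes. There 1205 genes were called for spread by sex and 1 for white coat. With no generation covariate 0 members were higher by diet in males, against 1680 of 14602 genes. A pseudocount 10 times larger called 576 and 1092 genes for spread by diet and sex, and one 10 times smaller called 185 for spread by diet and 4 for white coat.

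With the mouse number as a replicate block (correlation 0.0201), Mylip by sex on chow was called (-0.13, adjusted p = 0.0483). Of 92 pairs of a male and a female with the same number and diet, 10 had r over 0.1. Mice of unlike numbers were not set beside them, so whether the numbers pair the mice was not tested. The fit without the female with low Xist was added after the data had been seen.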
